A study of Mus musculus with 4 samples.

Results

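The genes that load peptides onto MHC class I molecules were followed in regulatory T cells (Treg cells, which depend on FOXP3 and hold immune responses in check) from fat and spleen of aged mice. The set held 10 of the 23284 gene symbols counted, picked by name for their role in the pathway. The rule uses no measured value, but the choice was made with earlier results of these data known. The set comprised the light chain gene B2m, the heavy chain genes H2-D1 and H2-K1, and the peptide transporter genes Tap1 and Tap2. It also held the loading gene Tapbp, the immunoproteasome genes Psmb8, Psmb9 and Psmb10, and the transcriptional regulator gene Nlrc5. All 10 had reads in every library and all 10 passed the filter on low counts.

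The study set Treg cells from the epididymal fat pad (eWAT, white adipose tissue of the abdomen) against spleen Treg cells as controls, in C57BL/6 mice of 12 to 13 months. There were 4 groups of 1 library each: 2KR eWAT and 2KR spleen, from mice of the genotype PPARg-2KR, and WT eWAT and WT spleen, from wild-type mice. PPARG is a nuclear receptor on which fat Treg cells depend, and the 2KR form carries 2 lysine-to-arginine changes that mimic its deacetylated state. The level of Pparg RNA therefore does not check the genotype labels. Whether a library came from 1 animal or a pool, and how the cells were gated, is not given in the sources used here. The reads counted to genes were 8315569 in 2KR eWAT, 11186660 in WT eWAT, 15993889 in 2KR spleen and 13250590 in WT spleen. Foxp3, which defines the Treg lineage, had 804 CPM in 2KR eWAT, 1162 in WT eWAT, 1299 in 2KR spleen and 1409 in WT spleen (CPM, reads scaled to one common library size by the trimmed mean of M-values, TMM).

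MHC class I molecules show peptides from a cell's own proteins to CD8 T cells, and nearly every nucleated cell carries them. Proteins are cut by the proteasome, whose 3 catalytic subunits are exchanged for immunoproteasome subunits in lymphocytes and under interferon. The peptides are pumped into the endoplasmic reticulum by the TAP1-TAP2 transporter, and tapasin (Tapbp) bridges that transporter to a waiting heavy chain paired with beta-2 microglobulin (B2m). NLRC5 joins a complex on the X and Y boxes of class I promoters and raises their transcription together, while interferon acts through factors such as IRF1 and their DNA elements.

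The members lie on 3 chromosomes. In the mm9 coordinates of the files, Psmb9 (chr17:34319044-34324275), Tap1 (chr17:34324501-34334170), Psmb8 (chr17:34335140-34338399) and Tap2 (chr17:34341424-34353266) stand side by side within 34.223 kb of the MHC, with 225, 969 and 3024 bases between neighbours. Tapbp (chr17:34056423-34066235) and H2-K1 (chr17:34132957-34137278) lie to one side of them and H2-D1 (chr17:35400039-35404442) to the other. B2m (chr2:121973423-121978818), Psmb10 (chr8:108459628-108462292) and Nlrc5 (chr8:96996663-97051172) lie outside the MHC.

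Upstream sequences were available for 8 of the 10 members in the RefSeq promoter table, with GRCm38.p6 coordinates; Tap2 and Nlrc5 were not matched. They are shown because the heavy chain and B2m genes carry a spaced pair of boxes that was not found in the other 5 members matched. Each line is the gene's own strand, 5′ to 3′, and capitals mark the X2 core TGACG, the Y box ATTGG (read on the other strand as CCAAT), an interferon-responsive element and an NF-kB motif. The H2-D1 stretch is chr17:35262913-35263055 (plus strand), the H2-K1 stretch chr17:34000349-34000468 (minus strand), the B2m stretch chr2:122147538-122147648 (plus strand) and the Tap1 stretch chr17:34187324-34187484 (plus strand). H2-K1 had a further listed start, from which TGACG lay 55 bases upstream instead of 41. From that start a CCAAT lay 6 bases upstream, beyond the end of the line printed.
H2-D1: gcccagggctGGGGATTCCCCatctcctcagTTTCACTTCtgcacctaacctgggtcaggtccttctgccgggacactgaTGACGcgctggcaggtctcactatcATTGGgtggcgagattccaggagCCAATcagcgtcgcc
H2-K1: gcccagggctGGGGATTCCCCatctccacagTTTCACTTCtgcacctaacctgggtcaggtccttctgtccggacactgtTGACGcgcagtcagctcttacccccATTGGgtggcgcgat
B2m: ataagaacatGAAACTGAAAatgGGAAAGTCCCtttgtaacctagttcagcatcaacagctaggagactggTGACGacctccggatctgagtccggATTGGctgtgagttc
Tap1: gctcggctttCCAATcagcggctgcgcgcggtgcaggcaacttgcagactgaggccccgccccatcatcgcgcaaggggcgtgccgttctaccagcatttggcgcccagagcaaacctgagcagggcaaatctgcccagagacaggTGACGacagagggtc
In H2-D1, H2-K1 and B2m, TGACG was followed on the same strand by ATTGG after 20 bases. TGACG followed by ATTGG with 10 to 30 bases between them was found in 0.642% of the 32851 promoters searched over 250 upstream bases, and in 3 of the 8 members. Taken singly and on both strands, TGACG was found in 5 of the 8 members (B2m, H2-D1, H2-K1, Psmb9 and Tap1) and 17.8% of all promoters. ATTGG was found in those 5 and in Tapbp, and in 33.8% of all promoters. The interferon element GAANNGAAA was found in H2-D1 and H2-K1 (6.31% of all promoters), its longer form with 1 more A after the first GAA in B2m (2.98%) and the NF-kB motif in B2m, H2-D1 and H2-K1 (7.25%). A match describes the letters in this window and is not a binding site. The upstream sequences of H2-D1 and H2-K1 were identical at 170 of 190 aligned bases (89.5%), against 62.2% for H2-D1 with B2m and 63.5% for H2-K1 with B2m. Tap1 and Psmb9 start 225 bases apart on opposite strands, so most of the Tap1 line is also upstream of Psmb9.

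The light and heavy chain genes were among the most abundant transcripts of every library. B2m had 8747 FPKM (the authors' value per transcript length and mapped fragments) in 2KR eWAT, 10810 in WT eWAT, 9871 in 2KR spleen and 11795 in WT spleen. It ranked 2 of all genes in 2KR eWAT, WT eWAT and 2KR spleen and 1 in WT spleen. H2-D1 had 4593 FPKM in 2KR eWAT, 5793 in WT eWAT, 4134 in 2KR spleen and 4371 in WT spleen, and H2-K1 had 3922, 4466, 4281 and 4366 FPKM in the same order of libraries. Neither heavy chain gene ranked below 9 in any library. The other members were lower per length in all 4 libraries. Psmb8 was the highest of them, at 564 FPKM in 2KR eWAT, 693 in WT eWAT, 1080 in 2KR spleen and 1302 in WT spleen, and Nlrc5 the lowest, at 36.4, 36.8, 43.0 and 33.4 FPKM in that order of libraries. In WT spleen the order by FPKM was B2m, H2-D1, H2-K1, Psmb8, Psmb9, Tapbp, Psmb10, Tap2, Tap1 and Nlrc5. H2-D1 and H2-K1 could not be separated there, since the authors' 95% bounds ran from 4341 to 4400 FPKM for H2-D1 and from 4337 to 4396 FPKM for H2-K1. In 2KR eWAT the neighbours Tap1 (95.4 to 104 FPKM), Tap2 (93.1 to 102 FPKM) and Psmb10 (85.9 to 98.8 FPKM) overlapped in the same way. The 10 genes together took 1.96% of the reads in 2KR eWAT, 2.40% in WT eWAT, 2.25% in 2KR spleen and 2.43% in WT spleen.

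**Figure D1:**
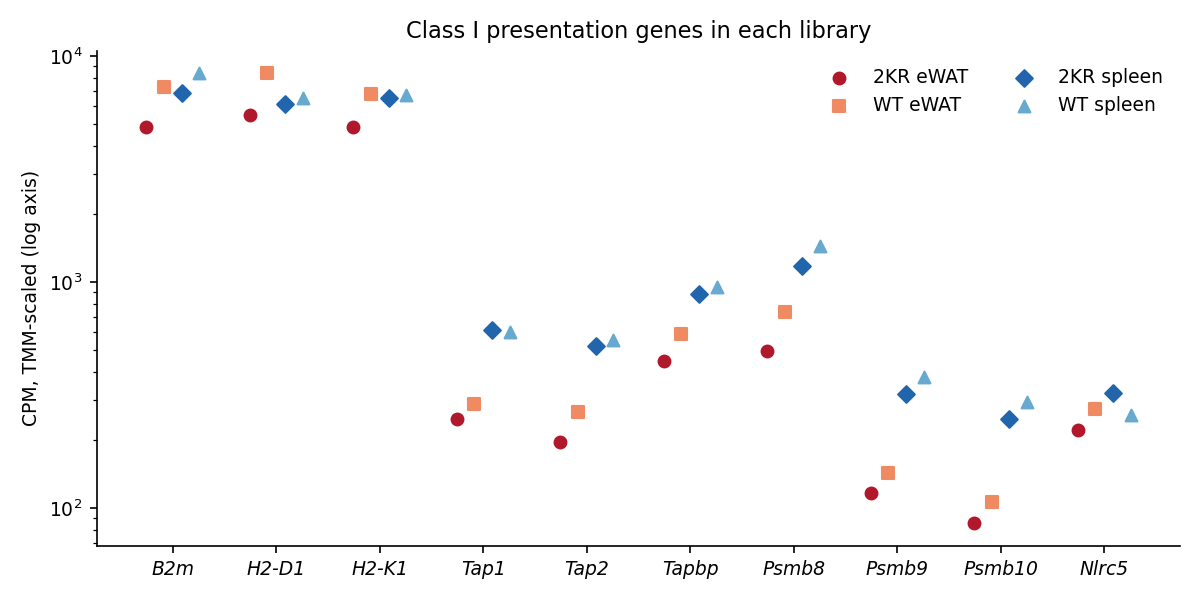
CPM after TMM scaling (log axis) of each gene in the 4 libraries, 1 point per library. The eWAT points of Tap1, Tap2, Tapbp, Psmb8, Psmb9 and Psmb10 lie below both spleen points, and those of B2m, H2-D1, H2-K1 and Nlrc5 overlap them.

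The comparison of tissues asked how fat Treg cells differ from spleen Treg cells, and set the 2 eWAT libraries against the 2 spleen libraries with edgeR's quasi-likelihood test, adjusted over 16488 genes (threshold 0.05). Of the 10 members 6 fell in eWAT, none rose and 4 did not pass. Of all genes tested, 23.2% fell and 33.7% rose (56.9% in either direction); among genes averaging 20 CPM or more, as all the members do, 42.8% fell and 10.2% rose. The 6 are the transporter, tapasin and immunoproteasome genes, and the 4 are B2m, both heavy chain genes and Nlrc5. In TMM-scaled CPM the same 6 had both eWAT libraries below both spleen libraries, an arrangement shown by 37.5% of all genes tested. In that measure none of the 10 had both eWAT libraries above both spleen libraries, as 44.3% of all genes did. By FPKM, H2-D1 did have both eWAT libraries above both spleen libraries. It had 4593 FPKM in 2KR eWAT and 5793 in WT eWAT, against 4134 in 2KR spleen and 4371 in WT spleen. The shares of 37.5% and 44.3% cover genes of all levels. They were not computed for genes averaging 20 CPM or more, among which more genes fell than rose. In bulk RNA, fewer cells of a type and less RNA per cell cannot be told apart. Since each side pools both genotypes, the spread behind the p-values holds the genotype difference, and it may be partly technical.

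Both chains of the peptide transporter were lower in eWAT by a similar amount. Tap1 had 248.8 CPM in 2KR eWAT and 289.4 in WT eWAT, against 610.9 in 2KR spleen and 603.1 in WT spleen. Its level in eWAT was 2.26-fold lower, a log2 fold change of −1.17 (SE 0.23, edgeR adjusted p = 0.000998). Tap2 had 195.1 CPM in 2KR eWAT and 265.9 in WT eWAT, against 519.9 in 2KR spleen and 551.5 in WT spleen, a 2.32-fold lower level (log2 −1.22, SE 0.23, edgeR adjusted p = 0.001). The libraries of the 2 tissues did not overlap for either gene. The ratio of Tap1 to Tap2, in FPKM within a library, was 1.02 in 2KR eWAT, 0.862 in WT eWAT, 0.926 in 2KR spleen and 0.870 in WT spleen, with no separation of the tissues. Tapbp, whose product holds the empty class I molecule at the transporter, had 446 CPM in 2KR eWAT and 589 in WT eWAT, against 887 in 2KR spleen and 949 in WT spleen. It was 1.77-fold lower in eWAT (log2 −0.83, SE 0.25, edgeR adjusted p = 0.0125), the smallest fall among the 6.

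All 3 immunoproteasome genes fell in eWAT, and Psmb10 and Psmb9 had the largest log2 fold changes of the 10 members. Psmb8, which encodes the chymotrypsin-like subunit LMP7, had 495 CPM in 2KR eWAT and 734 in WT eWAT, against 1174 in 2KR spleen and 1443 in WT spleen. Psmb9, which encodes LMP2, had 117 CPM in 2KR eWAT and 143 in WT eWAT, against 318 in 2KR spleen and 379 in WT spleen. Psmb10, which encodes MECL-1, had 85.7 CPM in 2KR eWAT and 106 in WT eWAT, against 248 in 2KR spleen and 295 in WT spleen. For each of these genes the higher eWAT library was WT eWAT and stayed below the lower spleen library, 2KR spleen. Psmb8 was 2.13-fold lower in eWAT (log2 −1.09, SE 0.28, edgeR adjusted p = 0.00511), Psmb9 2.68-fold lower (log2 −1.42, SE 0.22, adjusted p = 0.000181) and Psmb10 2.83-fold lower (log2 −1.50, SE 0.21, adjusted p = 9.5e-05). Psmb10 lies on another chromosome than the other 5 genes that fell, which are all in the MHC.

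The calls of Tapbp and Psmb8 were lost when either spleen library was left out. Every fit without a library has 1 library on that side, which is assumed to vary like the pair on the other side; this holds for all such values and counts given here. Without 2KR spleen Tapbp had an edgeR adjusted p of 0.168 and Psmb8 of 0.0683, and without WT spleen 0.201 and 0.142. The log2 fold changes in those fits were −0.93 and −0.82 for Tapbp and −1.28 and −0.98 for Psmb8. Tap1, Tap2, Psmb9 and Psmb10 kept their call in each of the 10 alternatives tried.

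B2m and the heavy chain genes did not pass the test. B2m had 4851 CPM in 2KR eWAT and 7298 in WT eWAT, against 6848 in 2KR spleen and 8364 in WT spleen (log2 −0.32, SE 0.36, edgeR adjusted p = 0.462). H2-D1 had 5450 CPM in 2KR eWAT and 8378 in WT eWAT, against 6099 in 2KR spleen and 6525 in WT spleen (log2 0.13, SE 0.36, adjusted p = 0.770). H2-K1 had 4850 CPM in 2KR eWAT and 6792 in WT eWAT, against 6531 in 2KR spleen and 6695 in WT spleen (log2 −0.18, SE 0.35, adjusted p = 0.668). In TMM-scaled CPM, 2KR eWAT was the lowest library for all 3 genes. WT eWAT lay among the spleen libraries for B2m and above them for H2-D1 and H2-K1. By FPKM, 2KR eWAT was still the lowest library for B2m and H2-K1. For H2-D1 it had 4593 FPKM, above 2KR spleen (4134) and WT spleen (4371). Under scaling by total reads the H2-D1 log2 ratio of eWAT over spleen in 2KR libraries was 0.11. The outcome differed with 1 eWAT library left out, in fits that take their spread from the spleen pair alone. Without WT eWAT, B2m was at a log2 of −0.74 (edgeR adjusted p = 5.96e-06), H2-K1 at −0.55 (adjusted p = 0.001) and H2-D1 at −0.31 (adjusted p = 0.0637). Without 2KR eWAT, H2-D1 was at 0.34 (edgeR adjusted p = 0.0153), B2m at −0.13 (adjusted p = 0.397) and H2-K1 at −0.03 (adjusted p = 0.843). Nlrc5, the class I transactivator, had 221 CPM in 2KR eWAT and 273 in WT eWAT, against 323 in 2KR spleen and 257 in WT spleen. Its tissues overlapped, with a log2 fold change of −0.23 (SE 0.22, edgeR adjusted p = 0.386), and without WT eWAT it was at −0.49 (adjusted p = 0.0128).

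The balance of the heavy chain genes was compared within each library. The ratio of H2-D1 to H2-K1, in FPKM, was 1.17 in 2KR eWAT and 1.30 in WT eWAT, against 0.966 in 2KR spleen and 1.001 in WT spleen. From reads the ratio was 1.12 in 2KR eWAT and 1.23 in WT eWAT, against 0.934 in 2KR spleen and 0.975 in WT spleen. By both measures the eWAT libraries lay above the spleen libraries, and such a ratio does not depend on how libraries are scaled. B2m over the sum of H2-K1 and H2-D1 was 1.03 in 2KR eWAT and 1.05 in WT eWAT, against 1.17 in 2KR spleen and 1.35 in WT spleen. Tap1 over B2m was 0.0114 in 2KR eWAT and 0.00880 in WT eWAT, against 0.0197 in 2KR spleen and 0.0161 in WT spleen. These ratios of 2 libraries against 2 were described and not tested.

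Reads from near-identical or overlapping genes can be placed wrongly, which bears on both heavy chain genes and may bear on 5 other members. Every 100-base window (the read length) of the members' transcripts was looked for in all other GENCODE transcripts. A transcript was matched for 35 of 41 members and other class I or class I-like heavy chain genes. H2-Q8, H2-Q9 and H2-T9 had none and did not appear as a match of any H2 gene. The shares given for H2 genes can therefore be too low. None of the 1520 windows of H2-K1 and 4.64% of the 2003 windows of H2-D1 occurred unchanged in another gene, and none was shared between H2-K1 and H2-D1. Within the 4 mismatches that the alignment allowed, 23.4% of the H2-K1 windows and 18.3% of the H2-D1 windows had a match elsewhere. For B2m, Psmb10 and Nlrc5 the share was 0 under both rules. Tap1 and Psmb9 shared 113 windows on opposite strands, 3.96% of the windows of Tap1 and 9.02% of those of Psmb9. That overlap is one of the GENCODE transcripts searched. The Psmb9 transcript had 1352 bases there, against 806 for the authors' NM_013585, and in the authors' mm9 coordinates 225 bases separate the genes. The use of strand in counting is not given in the sources used here. Of the windows of Tap2 5.35%, of Psmb8 1.64% and of Tapbp 14.0% occurred unchanged in another gene. For Tapbp, 390 of these 393 windows lay in Gm19412, on the opposite strand. Within 4 mismatches the shares were 16.4% for Tapbp, 6.73% for Tap2, 5.61% for Tap1 and 2.62% for Psmb8.

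Among the other H2 class I genes, counts and FPKM went apart. H2-Q7, which encodes the nonclassical molecule Qa-2 in this strain together with its copies, had 0 reads in all 4 libraries but 61.6 FPKM in 2KR eWAT, 135 in WT eWAT, 198 in 2KR spleen and 260 in WT spleen. Its neighbour H2-Q9 also had 0 reads and was listed at 1172 FPKM in 2KR eWAT, 1333 in WT eWAT, 941 in 2KR spleen and 955 in WT spleen, with a lower bound of 0 from the authors in all 4 libraries. H2-Q6 did have reads and did not pass the tissue test (log2 0.03, edgeR adjusted p = 0.9). Of its windows 68.6% had a match within 4 mismatches, in a search that held no transcript of H2-Q8 or H2-Q9. A 0 in the counts of these genes therefore does not show that their RNA was absent, and no direction is given for H2-Q6 to H2-Q9 singly. H2-Q1 had more reads in eWAT (116 in 2KR eWAT and 92 in WT eWAT, against 26 in 2KR spleen and 16 in WT spleen), yet its FPKM was 108 in 2KR eWAT and 129 in WT eWAT, against 92.8 in 2KR spleen and 101 in WT spleen.

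**Figure D2:**
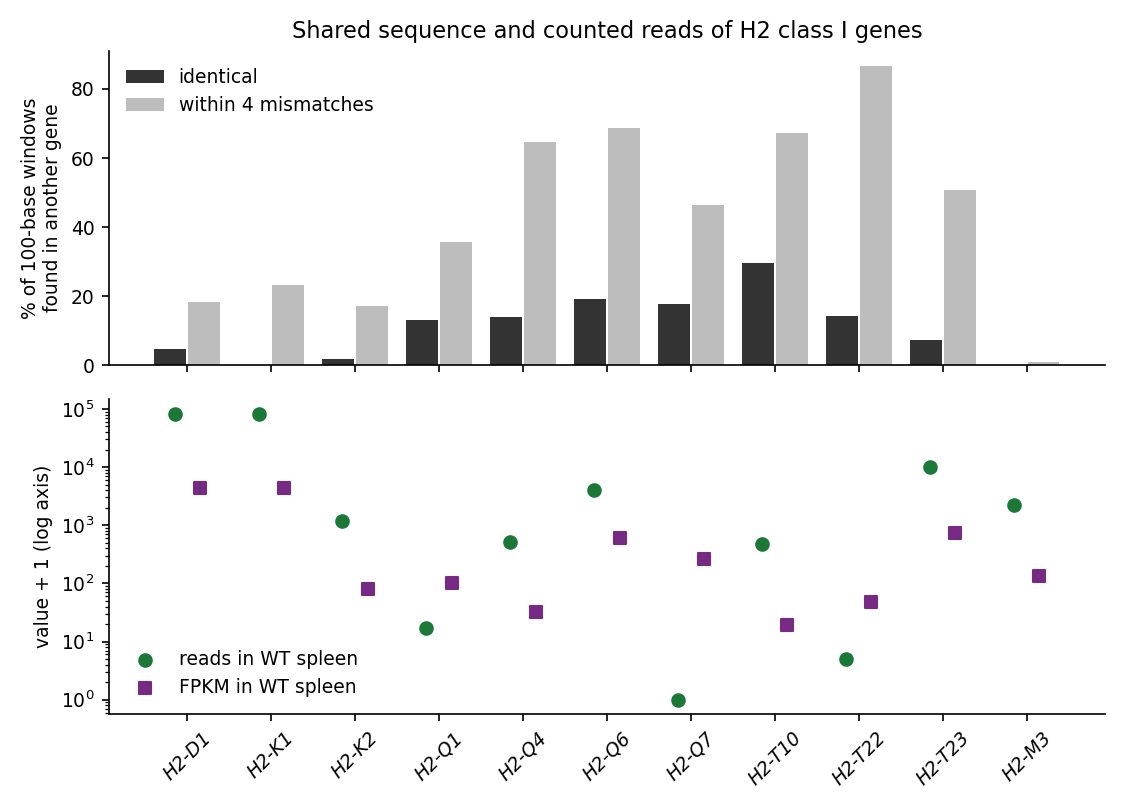
Upper plot, the percentage of 100-base windows of each H2 class I transcript found in another gene, unchanged (dark) or within 4 mismatches (light). No transcript of H2-Q8, H2-Q9 or H2-T9 was matched in that search. Lower plot, reads and FPKM of the same genes in WT spleen, each plus 1 (log axis): H2-Q7 has 0 reads but 260 FPKM, and H2-D1 and H2-K1 have 80733 and 82831 reads.

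Of the 19 other class I and class I-like heavy chain genes tested, 6 rose in eWAT, 8 fell and 5 did not pass. Beside them, 33.7% of all genes tested rose and 23.2% fell. H2-T23, which encodes the nonclassical molecule Qa-1, had 389 CPM in 2KR eWAT and 465 in WT eWAT, against 680 in 2KR spleen and 794 in WT spleen (log2 −0.79, SE 0.24, edgeR adjusted p = 0.0127). Of its windows 50.8% matched another gene within 4 mismatches. H2-T24 (log2 −1.07) and H2-T10 (−0.71) also fell by the reads as counted. Within 4 mismatches 3.17% of the H2-T24 windows and 67.2% of the H2-T10 windows matched another gene. H2-T22, which matched 57.4% of the H2-T10 windows, had 4 reads but 46.5 FPKM in WT spleen. The fall of H2-T10 is therefore uncertain. The count of 8 that fell was 2 without 2KR spleen, 3 without WT spleen and 1 with a filter of 5 CPM in 2 libraries, and the count of 6 that rose was 4 without 2KR eWAT, without 2KR spleen or with that filter, and 3 by limma on FPKM.

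The immunoproteasome genes were set beside the constitutive subunits that they replace. Of 21 other proteasome and activator genes tested, 18 fell in eWAT, none rose and 3 did not pass. Beside them, 23.2% of all genes tested fell, and 42.8% of those averaging 20 CPM or more. The falls were thus not limited to the immunoproteasome genes. That count of 18 was 9 with a filter of 5 CPM in 2 libraries, 14 under scaling by total reads and 19 by DESeq2. Over all genes 3832 fell in the main fit and 1981 with that filter, which also changes the number tested. Under scaling by total reads 2934 of all genes fell, by DESeq2 4255 and by limma on FPKM 3034. With either spleen library left out, fewer of the list and fewer of all genes fell. These counts over all genes also stand beside the counts of the other lists given here. The constitutive genes Psmb5 (log2 −0.65, edgeR adjusted p = 0.0423), Psmb6 (−0.79, adjusted p = 0.00597) and Psmb7 (−0.75, adjusted p = 0.00638) fell too, with smaller log2 fold changes than Psmb8, Psmb9 and Psmb10; that difference was not tested. Within a library, Psmb9 over Psmb6 in FPKM was 1.34 in 2KR eWAT and 1.39 in WT eWAT, against 2.01 in 2KR spleen and 1.95 in WT spleen. Psmb10 over Psmb7 was 1.07 in 2KR eWAT and 1.14 in WT eWAT, against 1.85 in 2KR spleen and 1.82 in WT spleen. Psmb8 over Psmb5 was 4.44 in 2KR eWAT and 4.92 in WT eWAT, against 7.34 in 2KR spleen and 5.64 in WT spleen. All 3 ratios were lower in both eWAT libraries than in both spleen libraries, and in FPKM each immunoproteasome gene exceeded its counterpart in every library. Psmb5 reads were few for its FPKM, so that the Psmb8 ratio from reads was 16.8 in 2KR eWAT and 18.5 in WT eWAT, against 29.2 in 2KR spleen and 21.1 in WT spleen. The ratios were not tested.

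**Figure D3:**
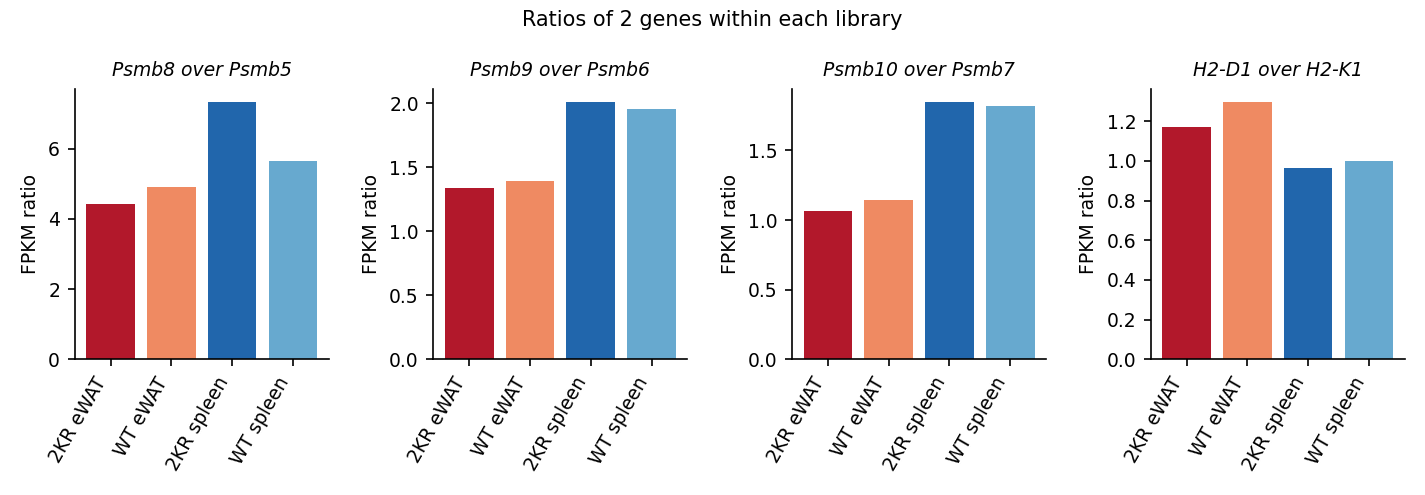
FPKM ratio of 2 genes in each library: the immunoproteasome genes over the constitutive genes they replace, and H2-D1 over H2-K1. The 3 proteasome ratios are lower in the eWAT libraries (for Psmb10 over Psmb7, 1.07 and 1.14, against 1.85 and 1.82 in spleen) and the heavy chain ratio is higher.

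The other proteasome genes that fell most were Psmg1 (log2 −1.37), an assembly chaperone, Psme1 (−1.30), a subunit of the interferon-inducible activator PA28, and the core subunit genes Psma4 (−1.05) and Psma2 (−1.01). Psme2, the partner of Psme1, fell by 0.80 on the log2 scale. Of 12 chaperone and peptidase genes of peptide loading, 4 fell and 8 did not pass. Beside them, 23.2% of all genes tested fell, and 42.8% of those averaging 20 CPM or more. None of the 12 fell without 2KR spleen, without WT spleen or with the 5 CPM filter, 8 fell without WT eWAT, and 2 fell under scaling by total reads or by limma on FPKM. The 4 were Tapbpl (log2 −0.73), a tapasin-like peptide editor, Blmh (−0.60), Npepps (−0.53) and Erap1 (−0.51), which are aminopeptidases or other trimming enzymes. Calr, the chaperone calreticulin, had a log2 fold change of −0.19 (edgeR adjusted p = 0.517).

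Of 23 regulators of class I transcription tested, 4 rose in eWAT, 7 fell and 12 did not pass. Beside these and the interferon response genes below, 33.7% of all genes tested rose and 23.2% fell. Among genes averaging 20 CPM or more, 10.2% rose and 42.8% fell. Irf1, which binds interferon elements, had 835 CPM in 2KR eWAT and 1221 in WT eWAT, against 916 in 2KR spleen and 952 in WT spleen, and did not pass (log2 0.14, edgeR adjusted p = 0.675). Rfx5 (log2 −1.01) and Rfxap (−1.22), subunits of the complex that binds the X box, fell, as did Socs1 (−1.23), a brake on cytokine signalling. Ifngr1 (log2 1.96), a receptor chain for interferon gamma, Ifng (1.81), the cytokine itself, and the kinase gene Jak2 (1.13) rose. Ciita, the class II counterpart of Nlrc5, rose (log2 2.00, SE 0.30, edgeR adjusted p = 0.000159). Of 30 interferon response genes, 19 fell in eWAT, 2 rose and 9 did not pass, with Ifi47 (log2 −1.81), Iigp1 (−1.78), Irf9 (−1.54) and Xaf1 (−1.53) falling most among those of 20 CPM or more. The count of 19 was 12 without 2KR spleen, 14 without WT spleen, 24 without WT eWAT, 12 with the 5 CPM filter, and 13 under scaling by total reads or by limma on FPKM. Of the regulators, 11 fell without 2KR eWAT or without WT eWAT, 5 fell without either spleen library in turn, and 6 rose with the 5 CPM filter.

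**Figure D4:**
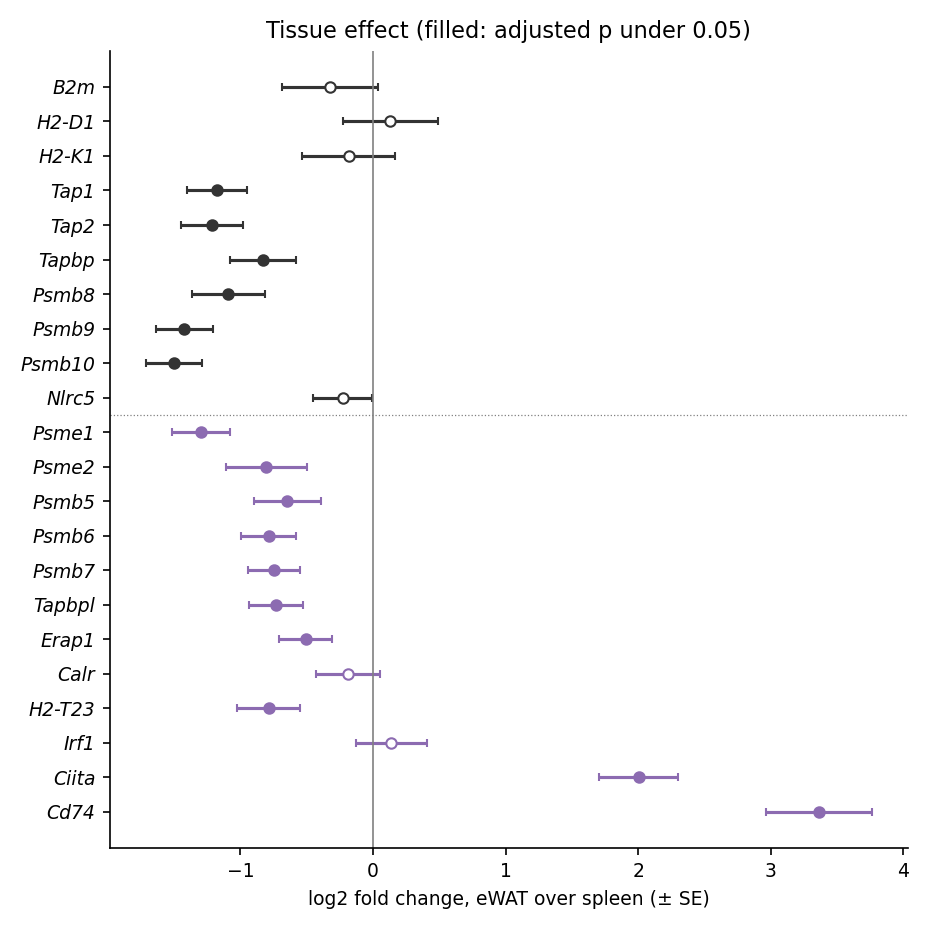
Log2 fold change of eWAT over spleen with its standard error, from 2 libraries a side, for the 10 members (upper, black) and for other genes of the pathway (lower, purple). Filled points have an edgeR adjusted p under 0.05; the filled members all lie between −1.50 and −0.83.

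Markers of other cells and of Treg cells were counted in the same tissue test. In it 33.7% of all genes rose in eWAT and 23.2% fell. Among genes averaging 20 CPM or more, 10.2% rose and 42.8% fell. All 15 macrophage and dendritic cell markers rose in eWAT, and their summed level was 2542 CPM in 2KR eWAT and 1807 in WT eWAT, against 78.1 in 2KR spleen and 103 in WT spleen; Clec10a was at 0 reads in 2KR spleen. Of 10 class II presentation genes, 7 rose, 2 fell and 1 did not pass, with a summed level of 16287 CPM in 2KR eWAT and 9043 in WT eWAT, against 905 in 2KR spleen and 1299 in WT spleen. In 2KR eWAT that sum was close to the 16961 CPM of the 10 class I genes together. Of 11 endothelial and fibroblast markers 10 rose and 1 fell (Pecam1), with a median log2 fold change of 4.76. Their sum, Pecam1 included, was 396 CPM in 2KR eWAT and 629 in WT eWAT, against 197 in 2KR spleen and 180 in WT spleen. The sums therefore differ less between tissues than the median marker does. Lum was at 0 reads in both spleen libraries and Cldn5 in 2KR spleen. Of 8 B cell markers 3 rose, 1 fell and 4 did not pass, and their sum was 170 CPM in 2KR eWAT and 93.7 in WT eWAT, against 85.9 in 2KR spleen and 102 in WT spleen. Of 6 CD8 T and NK cell markers 2 rose, 1 fell and 3 did not pass (46.7 CPM in 2KR eWAT and 60.7 in WT eWAT, against 48.7 in 2KR spleen and 49.9 in WT spleen). Of 11 Treg and T cell identity genes 5 fell, 1 rose (Ctla4) and 5 did not pass. Cd3d (log2 −1.43), Lck (−1.24), Cd3g (−1.04) and Cd3e (−1.03), of the T cell receptor complex and its kinase, fell by amounts in the range of the members that fell. Only 1 identity gene fell without 2KR spleen or without WT spleen, and 8 fell without WT eWAT. The part of these cells in the members' values was not tested.

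The genotype comparison asked what the 2KR form changes in each tissue, and had 1 library per group, so that no difference within a tissue could be tested. In eWAT all 10 members had a log2 ratio of 2KR over WT below 0, and 55.7% of the 12364 genes with at least 5 CPM in 1 library were below 0. None of the members passed a 2-fold difference in either direction; 5.52% of genes were at 1 or above and 2.32% at −1 or below. The heavy and light chain genes and Psmb8 had the lowest ratios, at −0.62 for H2-D1 (95% counting interval −0.64 to −0.60), −0.59 for B2m (−0.61 to −0.57), −0.57 for Psmb8 (−0.62 to −0.52) and −0.49 for H2-K1 (−0.50 to −0.47). Tap2 stood at −0.45, Tapbp at −0.40, Psmb10 at −0.31, Nlrc5 at −0.30, Psmb9 at −0.28 and Tap1 at −0.22. Under TMM scaling the counting intervals of all 10 lay below 0. They hold counting error alone, without any spread between animals, and PCR copies are not separate molecules. The median of the members was −0.42, beside −0.07 over all genes.

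The scaling of the eWAT libraries bears on these ratios. Scaling by total reads instead of TMM moved the median of all genes in eWAT by 0.25 on the log2 scale. The members' median was then −0.17, with 9 below 0 and Tap1 at 0.04. Psmb9 was then at −0.03, Nlrc5 at −0.05 and Psmb10 at −0.06, and the counting intervals were not recomputed. The members' median less the all-gene median was −0.35 under both scalings. By FPKM 9 of the 10 were also below 0, and the members' median less that of all genes was −0.28.

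In spleen the ratios ran from −0.30 to 0.33. Psmb8 stood at −0.30, B2m at −0.29, Psmb9 and Psmb10 at −0.25, H2-D1 and Tapbp at −0.10, Tap2 at −0.09, H2-K1 at −0.04, Tap1 at 0.02 and Nlrc5 at 0.33. Of the 10, 8 were below 0, beside 59% of all genes, and none passed a 2-fold difference (1.04% of all genes at 1 or above and 5.81% at −1 or below). The interval of Nlrc5 lay above 0 (0.27 to 0.40) and that of Tap1 included it (−0.03 to 0.06). The median of the members was −0.10, beside −0.07 over all genes. Under DESeq2's size factors 7 members were below 0 and 3 above.

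**Figure D5:**
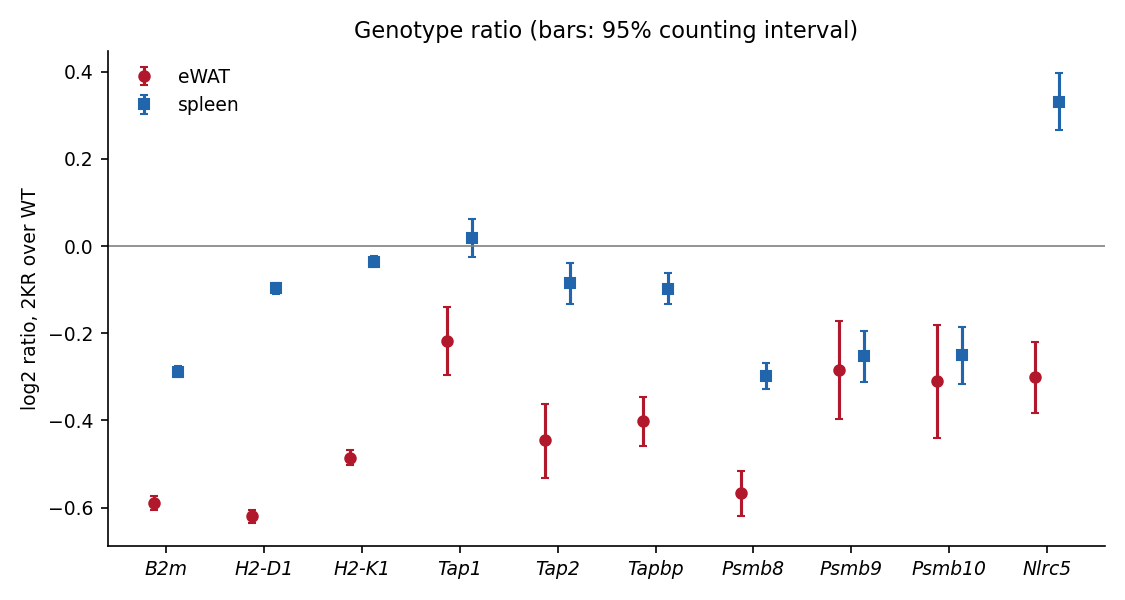
Log2 ratio of 2KR over WT for each gene in eWAT (circles) and spleen (squares), 1 library a group, TMM-scaled with a prior count of 2; bars are 95% counting intervals and hold no spread between animals. The eWAT ratios run from −0.62 (H2-D1) to −0.22 (Tap1) and the spleen ratios from −0.30 (Psmb8) to 0.33 (Nlrc5).

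The eWAT ratio minus the spleen ratio was below 0 for all 10 members, beside 53% of all genes, and none passed a log2 of 1 in size (12.9% of genes at 1 or above, 2.99% at −1 or below). It ran from −0.63 for Nlrc5 to −0.03 for Psmb9, with a median of −0.30, beside −0.04 over all genes. Under scaling by total reads 8 of the 10 were below 0, with a median of −0.08 beside 0.19 over all genes. By FPKM 7 of the 10 were below 0, with a median of −0.05 beside 0.15 over all genes. An effect of 2KR shared by the tissues was tested over all 4 libraries in a model with a tissue term, which left 1 residual degree of freedom. No member passed, and 0.0667% of all genes did (11 genes, all lower in 2KR). Without adjustment 0 of the 10 members and 777 of the 16488 genes tested had an edgeR p under 0.05. That is fewer genes than the 0.05 cut alone would pass. The lowest unadjusted edgeR p of a member was 0.138 (Psmb8). DESeq2 and limma on FPKM also called 0 members.

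The genotype ratios of other lists in eWAT are set beside those of all genes, of which 55.7% were below 0 with a median of −0.07. Of 11 Treg and T cell identity genes 10 had a ratio below 0, with a median of −0.37, among them Foxp3 at −0.53, Il2ra at −0.61 and Lck at −0.52. Of 15 macrophage and dendritic cell markers 14 had a ratio above 0 (median 0.76), and so had all 9 class II presentation genes (median 0.77), such as Cd74 at 0.88. Of the 21 proteasome genes 19 were below 0 (median −0.27). Under scaling by total reads, where 33.3% of all genes were below 0 and their median was 0.18, 12 of the 21 proteasome genes (median −0.02) and 7 of the 11 identity genes (median −0.12) were below 0. All 15 macrophage and dendritic cell markers (median 1.02) and all 9 class II genes (median 1.03) were then above 0. Among the regulators, Socs1 stood at −0.82, Irf1 at −0.55 and Rela at −0.50, and Ifng at 0.87, Rfx5 at 0.45 and Ifngr2 at 0.43. The part of the cell mixture in the members' genotype ratios was not tested.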

How the data were processed

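RNA sequencing libraries of Treg cells from eWAT and spleen of PPARg-2KR and WT mice were used, 1 per combination, grouped by the labels. The deposited read counts are whole numbers per gene symbol, unscaled, from the authors. Per the deposited readme, the libraries were TruSeq poly-A libraries with a read length of 100 bp. The same readme names bcl2fastq 1.8.4, then Tophat 2.1.0 with mm9, with at most 4 mismatches and 10 hits per read; the submitters' processing notes also name mm8. How reads were counted (tool, strand, reads with several hits) is not given in the sources used here. The authors' deposited FPKM values come from Cufflinks 2.0.2, with 95% bounds, and served for levels per length, ratios within a library and an alternative test.

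Tests used edgeR 4.0.16 in R 4.3.3 (TMM, its expression filter, quasi-likelihood test, Benjamini-Hochberg over 16488 genes, threshold 0.05); DESeq2 1.42.0 and limma 3.58.1 on log2(FPKM + 1) were alternatives. TMM factors were 1.159 (2KR eWAT), 0.968 (WT eWAT), 0.953 (2KR spleen) and 0.934 (WT spleen). The biological coefficient of variation was 0.221 in the tissue fit. Genotype ratios used TMM-scaled CPM (prior count 2) for 12364 genes with exact conditional binomial 95% intervals. Other steps used Python 3.11.15, Biopython 1.88, matplotlib 3.10.9, numpy 2.4.6, pandas 2.3.3 and scipy 1.17.1. The tests were first run on made-up counts with known changes, to check the scripts.

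The 10 members and 11 further gene lists were chosen with earlier results of these data known. All members are named. From other lists up to 4 called genes per direction with a mean of 20 CPM or more were named for tissue and up to 3 for genotype in eWAT, with some fixed counterparts (Psmb5, Psmb6, Psmb7, Psme1, Psme2, Irf1, Ciita, H2-Q7, H2-T23, Foxp3, Cd74). H2-Q1, H2-Q6, H2-Q9, Calr and markers at 0 reads were named after their values were seen. Promoters came from the RefSeq table of GRCm38.p6 and transcripts from GENCODE; no coordinates were converted between builds. One gene that this rule selects is not reported here.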

Additional observations from a re-analysis of the deposited data

Results flagged for a closer look

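For 4 of the members the 2 genotypes or the 2 tissues gave log2 ratios of opposite sign. With 1 library per group these differences were not tested. For H2-D1 the ratio of eWAT over spleen was −0.16 in 2KR libraries and 0.36 in WT libraries, a difference of −0.52. For H2-K1 it was −0.43 in 2KR libraries and 0.02 in WT libraries, a difference of −0.45. For Tap1 the genotype ratio (2KR over WT) was −0.22 in eWAT and 0.02 in spleen, a difference of −0.24. Nlrc5 changed sign in both readings. Its genotype ratio was −0.30 in eWAT and 0.33 in spleen, and its ratio of eWAT over spleen was −0.54 in 2KR libraries and 0.09 in WT libraries, a difference of −0.63 either way. Only the genotype signs of Nlrc5 were opposite under all 3 other scalings run. Its eWAT ratio was −0.33 by DESeq2's size factors, −0.05 under scaling by total reads and −0.02 by FPKM. By FPKM the authors' bounds overlapped, from 34.8 to 38.0 in 2KR eWAT and from 35.5 to 38.2 in WT eWAT. Under scaling by total reads Tap1 was at 0.04 in eWAT and 0.05 in spleen, by FPKM at 0.07 and 0.04, and its spleen counting interval (−0.03 to 0.06) includes 0. H2-D1, as eWAT over spleen, was at 0.11 in 2KR libraries and 0.41 in WT libraries under scaling by total reads, and at 0.15 and 0.41 by FPKM. By DESeq2's size factors H2-K1 was at −0.62 in 2KR libraries and −0.07 in WT libraries, and Nlrc5 at −0.73 and −0.0017. The other 6 members had the same sign in both, with eWAT over spleen from −1.53 (Psmb10) to −0.50 (B2m) in 2KR libraries and from −1.47 (Psmb10) to −0.20 (B2m) in WT libraries.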

How the results depend on the processing

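The count of 6 members lower in eWAT and 0 higher was obtained under scaling by total reads, DESeq2, no expression filter, a filter of 5 CPM in 2 libraries, limma on FPKM and genotype as a further term. Leaving out 1 library in turn, with the lone library of that side assumed to vary like the other pair, gave 4 to 9 members called. The count over all genes was 9387, and was 4666 with the 5 CPM filter, 5761 by limma on FPKM, and 6074 to 10218 with 1 library left out. The sign of uncalled members was not stable: H2-K1 stood at 0.095 and Nlrc5 at 0.053 with the 5 CPM filter, and H2-D1 at −0.0025 by DESeq2 and −0.31 without WT eWAT, against 0.34 without 2KR eWAT. Scaling by total reads moved the median tissue ratio of all genes by 0.17 and DESeq2 by −0.14 on the log2 scale. No member passed 2-fold by genotype, and none the common genotype test, under any alternative run. The common genotype fit could not be repeated with a library left out, since no residual degrees of freedom remain. No paired analysis was possible because the labels give no replicate numbers to pair by; the fit with genotype as a further term sets each eWAT library against the spleen library of its genotype, with 1 residual degree of freedom, and gave 6 members lower. The scalings of the other lists' genotype ratios and of the members with opposite signs were added after seeing the data. The smallest member count was 822 reads (Psmb10 in 2KR eWAT), and the standard errors of the tissue fit (0.21 to 0.36) were larger than the counting error.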

Other observations

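Some class I-like genes outside the pathway also differed by tissue. Fcgrt, which encodes the neonatal Fc receptor heavy chain, had 54.6 CPM in 2KR eWAT and 39.3 in WT eWAT, against 2.49 in 2KR spleen and 4.61 in WT spleen (log2 3.74, SE 0.32, edgeR adjusted p = 1.07e-06). Mr1, which presents vitamin B metabolites to MAIT cells, had 22.3 CPM in 2KR eWAT and 32.9 in WT eWAT, against 45.7 in 2KR spleen and 51.8 in WT spleen (log2 −0.82, SE 0.23, adjusted p = 0.00795). Cd1d1, which presents lipids to NKT cells, had 80.8 CPM in 2KR eWAT and 57.1 in WT eWAT, against 99.7 in 2KR spleen and 97.6 in WT spleen. It was named for its genotype ratio in eWAT, and no tissue call is given for it. Of its windows 14.6% occurred unchanged in Cd1d2 and 33.9% within 4 mismatches. H2-M2 had 195 reads in 2KR eWAT and 121 in WT eWAT, against 0 in both spleen libraries, where 3 reads would be 0.197 CPM in 2KR spleen and 0.242 CPM in WT spleen; it was named after its values were seen.

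Tapbp was split by the authors' transcript table over NM_009318 and NM_001025313. NM_009318 had 108 FPKM in 2KR eWAT and 131 in WT eWAT, against 184 in 2KR spleen and 199 in WT spleen. NM_001025313 had 94.1 FPKM in 2KR eWAT and 88.1 in WT eWAT, against 137 in 2KR spleen and 139 in WT spleen. Both transcripts were lower in both eWAT libraries. The second Tap1 transcript, NM_001161730, was at 7.92 FPKM in WT spleen and near 0 in the other 3 libraries. Over the whole series, 46 symbols had 0 reads in all 4 libraries but at least 5 FPKM in each, H2-Q7, H2-Q9 and H2-T9 among them.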
